A study of Mus musculus with 15 samples.

Results

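The left ventricle under pressure overload was compared with and without neuregulin-1 (NRG1), across all 11018 genes with enough reads to test. The comparison used 10 of the 15 libraries of the series. Of these, 5 came from mice with transverse aortic constriction and NRG1 (TAC NRG1) and 5 from mice with the same constriction and saline (TAC saline). A further 5 libraries from sham-operated mice with saline are given beside them as the level without constriction, and entered the fit so that all 15 libraries shared an estimate of the spread. All mice were male C57BL/6NRj with no genetic change named, and carried minipumps with saline or NRG1. The constriction narrows the aorta and raises the load on the left ventricle. The labels used here give no dose, no duration and no age, and no sham group received NRG1, so what the factor does without constriction was not measured. Nor do they tie each library to a mouse of its own. The p-values thus reflect only how far these samples scatter, which may be technical.

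NRG1 is an epidermal growth factor-like ligand. In the heart it is released mainly by endothelial cells and binds ERBB4 or ERBB3 on neighbouring cells, which pair with ERBB2. The paired receptors signal through the ERK and PI3K-AKT cascades, and the pathway is known in cardiomyocytes for roles in growth, survival and sarcomere upkeep. Pressure overload is known to reactivate genes of the fetal ventricle, among them the natriuretic peptides and the slow myosin heavy chain, and to activate fibroblasts and immune cells.

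The RNA was read by BRB-seq, which barcodes each sample and counts the 3′ ends of its transcripts. Libraries held 2.02 to 5.62 M reads. Levels are given in CPM, read counts on the authors' scale for library depth, and differences as log2 fold changes with their standard error. A gene was called, and is said to have risen or fallen, when its limma p adjusted over all genes tested was under 0.05. The 10 ventricular cardiomyocyte markers, among them Myh6, Myl2 and Tnnt2, summed to 70107 to 83830 CPM in TAC saline and 69226 to 85795 CPM in TAC NRG1. Of 11 atrial markers listed, 7 had values, and these 7 summed to 51.0 to 65.4 and 56.8 to 65.4 CPM. Stard10 and Nr2f2 were their largest members, while Myl7 stood at 0.43 to 1.61 CPM in TAC saline and 0.22 to 2.55 CPM in TAC NRG1. None of the 10 ventricular and 7 atrial markers was at 0 reads in all 10 libraries. The label of left ventricle and the marker levels did not contradict each other.

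Replicates 4 and 5 of TAC NRG1 stood apart from the other libraries in several measures. They held the fewest reads, 2.02 and 2.13 M, where the other TAC NRG1 libraries held 3.39, 5.62 and 3.48 M and TAC saline libraries 2.86 to 3.82 M. On the second principal component, which took 14.5% of the variance, they lay at 32.4 and 35.9. The mitochondrial large ribosomal RNA mt-Rnr2 stood at 15652 and 13476 CPM in them, against 47658, 57529.6 and 40474 CPM in TAC NRG1 1 to 3 and 47763 to 68239 CPM in TAC saline. Ribosomal protein genes took 2.60% and 2.76% of their reads, against 2.19% to 2.36% in TAC NRG1 1 to 3 and 2.05% to 2.23% in TAC saline. Relative to the TAC saline mean, the genes in the top 25% by transcript length had a median log2 difference of -0.13 in each of them, and those in the bottom 25% had 0.13. In TAC NRG1 1 to 3 the same medians lay between -0.05 and -0.01 and between 0.03 and 0.06. Their part in the results was not tested.

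**Figure D1:**
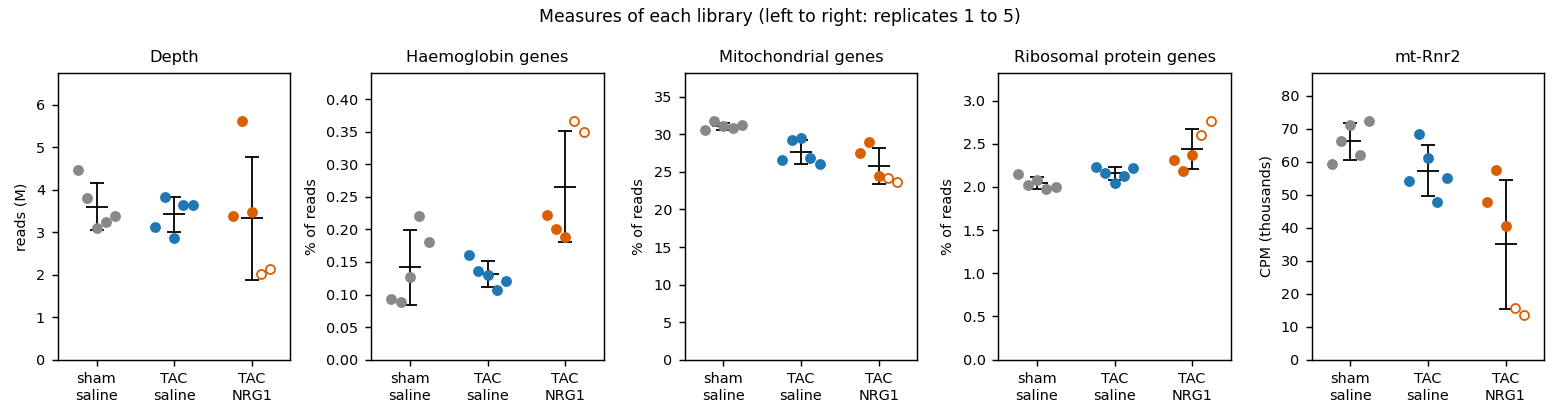
Depth, shares of reads and mt-Rnr2 level of each library, by group, with replicates 1 to 5 from left to right. Points are libraries, with TAC NRG1 4 and 5 drawn open, and bars are the mean ± SD of 5 libraries. Both open points lie at the foot of the depth and mt-Rnr2 panels and at the top of the haemoglobin and ribosomal protein panels.

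To show what lies upstream of a gene that rose and a gene that fell firmly, the 250 bases before the RefSeq start of Nppa and of Apln are printed here, 5′ to 3′ on the strand of the gene, from build GRCm38.p6. Nppa lies on the plus strand at chr4:148000472-148000721 and Apln on the minus strand at chrX:48034854-48035103. Capitals mark a match to a motif searched.
Nppa: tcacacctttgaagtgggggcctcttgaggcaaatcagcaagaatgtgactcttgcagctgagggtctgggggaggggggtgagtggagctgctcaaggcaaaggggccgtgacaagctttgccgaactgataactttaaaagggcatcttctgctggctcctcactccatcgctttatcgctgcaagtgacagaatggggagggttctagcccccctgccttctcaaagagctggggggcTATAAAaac
Apln: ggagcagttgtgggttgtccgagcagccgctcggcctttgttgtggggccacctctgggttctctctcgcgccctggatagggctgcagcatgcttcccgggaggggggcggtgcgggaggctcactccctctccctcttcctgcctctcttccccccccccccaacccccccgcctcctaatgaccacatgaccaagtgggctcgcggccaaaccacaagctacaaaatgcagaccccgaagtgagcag
The 7 motifs searched on both strands were the TATA box (TATAAA), the GATA site (AGATAA), the CArG box, the MEF2 site, the AP-1 site (TGANTCA), the cyclic AMP response element (TGACGTCA) and the ETS site (CCGGAAGT). Nppa held 1 match to these letters, the TATAAA that starts 9 bases before the start of the gene. That motif occurs in 12.4% of the 32851 RefSeq windows of this length. Apln held no match to these letters in this window. Only fixed letters were searched for each motif, so a variant such as tgataa, which the Nppa window holds, was not marked. Of the 74 genes that rose, 58 had a RefSeq window and 10 of them held TATAAA, and of the 69 that fell, 51 had a window and 8 held it, where 7.99% of all tested genes with a window did. These matches are descriptions of sequence, and binding was not measured.

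A small share of the genes tested passed the threshold with NRG1 under constriction, and genes that did not pass may have differed as well. Of 11018 genes, 143 were called between TAC NRG1 and TAC saline, which is 1.3% of those tested, with 74 higher (0.672%) and 69 lower (0.626%). Of these, 12 were higher and 15 lower by over 2-fold. Before adjustment, 1691 genes (15.3%) had a p below 0.05. The count with all reads outside mitochondrial genes as the scaling was 45 higher and 93 lower, so the split between the directions depended on the scaling: 51.7% of calls were higher on the authors' scaling and 32.6% on that one. Constriction alone, TAC saline against sham, called 1180 genes (10.7%), 713 higher (6.47%) and 467 lower (4.24%). TAC NRG1 against sham called 1777 (16.1%), 963 higher (8.74%) and 814 lower (7.39%). These comparisons share libraries with each other.

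Among the 143 called genes, 105 had no overlap between the 5 TAC NRG1 and the 5 TAC saline libraries. Over all tested genes, 199 were higher with no overlap (1.81%) and 138 lower (1.25%). For the genes that rose, the median log2 difference from the TAC saline mean was 0.45, 0.48, 0.59, 0.69 and 0.61 in TAC NRG1 1 to 5. For the genes that fell it was -0.55, -0.57, -0.83, -0.93 and -0.83. The choice of called genes fixes the direction of these medians, and only their order between libraries is a description of the data. Replicates 1 and 2 lay nearest to TAC saline in both directions.

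**Figure D2:**
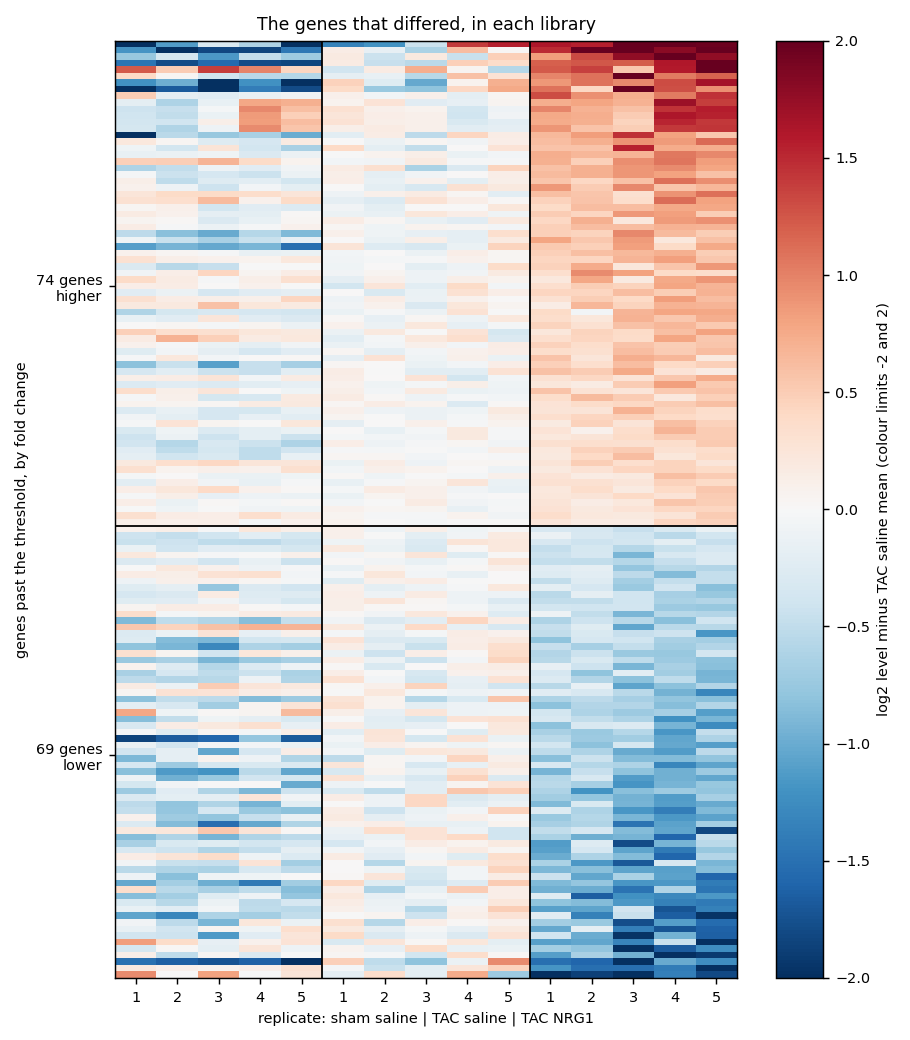
Level of the 143 called genes in each of the 15 libraries, as log2 level minus the TAC saline mean, with genes in rows ordered by fold change and libraries in columns by group. Red is above and blue below the TAC saline mean, and colours stop at -2 and 2. The colours of the TAC NRG1 columns are deepest in replicates 3, 4 and 5.

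The count of calls rested heavily on replicates 4 and 5. Without both of them 39 genes were called (0.354%), 23 higher and 16 lower, and 36 of these were among the 143. The log2 fold change of each of the 143 genes kept its sign without them. That was likely beforehand, since the genes were chosen in a fit that also held replicates 1 to 3 and the same TAC saline libraries. Both libraries lay farther from TAC saline than replicates 1 to 3 for 54 called genes, 35 higher and 19 lower, and nearer for 6. Leaving out TAC NRG1 4 alone gave 58 calls, leaving out TAC NRG1 5 alone gave 77, and leaving out TAC NRG1 2 gave 229. It was 78, 92 and 93 without TAC saline 1, 4 or 5. A core of 47 genes was called with all libraries and again when each of the 10 TAC libraries was left out in turn.

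**Figure D3:**
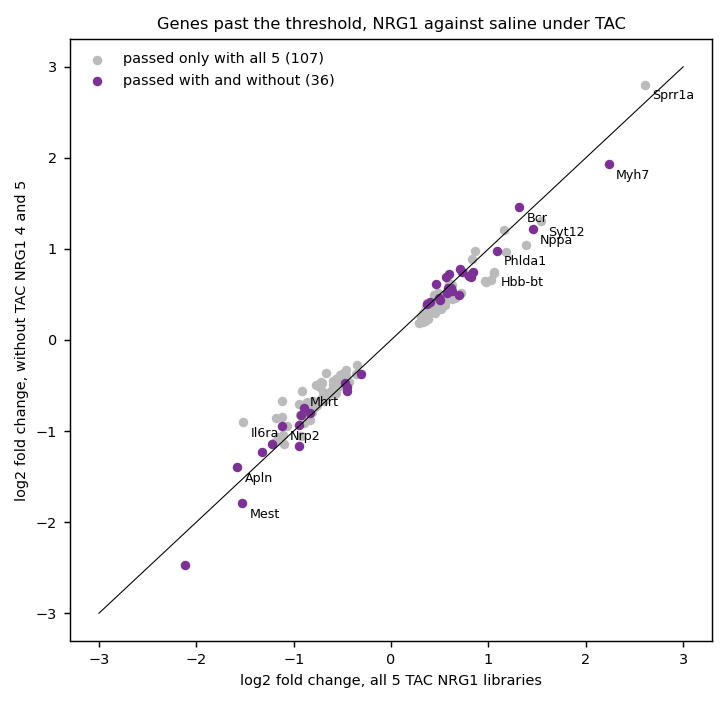
Log2 fold change of the 143 called genes with all 5 TAC NRG1 libraries (horizontal) against the value without replicates 4 and 5 (vertical), with the line of equality. Purple points are the 36 genes called in both fits and grey points the 107 called only with all 5. All points keep their sign, which the choice of genes in the full fit makes likely. Il6ra and the haemoglobin gene Hbb-bt lie closer to 0 without the pair.

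In the list of fetal and stress genes of cardiomyocytes, the slow myosin and atrial natriuretic peptide genes had the highest fold changes. Myh7 encodes the slow β-myosin heavy chain, the main myosin of the fetal mouse ventricle. It stood at 228, 185, 133, 315 and 209.8 CPM in TAC saline 1 to 5 and at 576, 986, 849.8, 717 and 2478 CPM in TAC NRG1 1 to 5. The groups did not overlap, and TAC NRG1 5 was far above the other 4. The log2 fold change was 2.24 ± 0.27 (limma adjusted p = 2.5e-05), and 1.93 without replicates 4 and 5 (limma adjusted p = 2.7e-05). In sham it stood at 65.4 ± 18.3 CPM (SD, n = 5), so constriction alone had raised it by 1.70 ± 0.27 (limma adjusted p = 0.000164). Myh6, the fast α-myosin heavy chain of the adult mouse ventricle, stood at 6407 ± 621 CPM in TAC saline and 5535 ± 592 CPM in TAC NRG1. Its difference of -0.21 did not pass (95% interval -0.40 to -0.02, limma adjusted p = 0.266).

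Nppa, which encodes atrial natriuretic peptide and whose upstream sequence is printed above, stood at 705, 458, 435, 874 and 813 CPM in TAC saline. In TAC NRG1 it was at 1444, 1490.3, 1464, 1917 and 2547 CPM. Every TAC NRG1 library was above every TAC saline library, and replicates 4 and 5 were the highest. It rose by 1.45 ± 0.17 (limma adjusted p = 2.0e-05), or 1.22 without that pair (limma adjusted p = 0.000246), from a sham level of 197 ± 23.2 CPM. Nppb, the neighbouring gene for brain natriuretic peptide, did not pass. It stood at 2014, 871, 1573, 1159 and 1437 CPM in TAC saline and 1588, 1576, 1522, 1259 and 2048 CPM in TAC NRG1. The groups overlapped, with a log2 difference of 0.22 (95% interval -0.19 to 0.63, limma adjusted p = 0.645), although constriction alone had raised Nppb by 1.25 ± 0.20 (limma adjusted p = 0.000206). Acta1, the skeletal actin of the fetal heart, was at 1845 to 4064 CPM in TAC saline and 2119.7 to 2522 CPM in TAC NRG1, a difference of -0.18 (95% interval -0.60 to 0.23, limma adjusted p = 0.712).

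Of the 27 tested members of this list of fetal and stress genes, 4 rose (Myh7, Nppa, Ankrd1 and Des), 1 fell (Mybpc2) and 22 did not pass. The rises were 14.8% and the fall 3.70% of the list, against 0.672% and 0.626% of all genes tested. The list median was 0.11, and 0.20 without replicates 4 and 5, where the median of all genes was -0.01 and 0.00. Constriction alone had raised 22 of the 27, with a median of 0.77. Ankrd1, a stretch-responsive protein of the sarcomere and nucleus, stood at 1404, 978, 938, 1071 and 1602 CPM in TAC saline and 1685, 1633, 2060.3, 1520.2 and 1985 CPM in TAC NRG1. Only TAC saline 5 reached into the range of TAC NRG1, and Ankrd1 rose by 0.59 ± 0.13 (limma adjusted p = 0.0221). That call was lost without TAC saline 2, 3 or 4 or TAC NRG1 5 (limma adjusted p of 0.0517 to 0.0627). Des, the intermediate filament desmin, rose by 0.37 ± 0.09 from 1746 ± 138 to 2265 ± 213 CPM with no overlap (limma adjusted p = 0.0254), a call lost without TAC saline 1, 2 or 5 or TAC NRG1 4 or 5 (limma adjusted p of 0.0509 to 0.0873). Mybpc2, a myosin binding protein of fast skeletal fibres, fell by 0.72 from 25.7 ± 4.72 to 15.5 ± 1.98 CPM with no overlap, while it stood at 9.25 ± 3.15 CPM in sham (SD, n = 5). Its call was lost without TAC saline 1, 2, 4 or 5 or TAC NRG1 4 or 5 (limma adjusted p of 0.0574 to 0.129). Without TAC NRG1 4 and 5 together, Ankrd1, Des and Mybpc2 did not pass (limma adjusted p of 0.0800, 0.210 and 0.190).

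Among 30 adult contractile and calcium handling genes only Tnnt2 rose (3.33%, where 0.672% of all genes tested did). In the list 0 fell, where 0.626% of all genes tested did. Before adjustment, 6 of the 30 had a limma p under 0.05, 2 of them higher, where 15.3% of all genes tested had such a p. Tnnt2, cardiac troponin T, stood at 4003, 4450.4, 4351, 4165 and 3883 CPM in TAC saline and 4794, 5086, 5609, 5677 and 5421 CPM in TAC NRG1. The groups did not overlap, and the rise was 0.35 ± 0.08 (limma adjusted p = 0.0351), lost without TAC saline 1, 4 or 5 or TAC NRG1 4 or 5 (limma adjusted p of 0.0648 to 0.108), and without both of the last pair (limma adjusted p = 0.188). Atp2a2, which pumps calcium back into the sarcoplasmic reticulum, was at 4946 ± 648 and 4696 ± 190.4 CPM (difference -0.07, 95% interval -0.25 to 0.12). Its inhibitor phospholamban, Pln, was at 4030.4 ± 571 and 4339 ± 335 CPM (difference 0.11, 95% interval -0.07 to 0.30). Neither passed (limma adjusted p of 0.770 and 0.595), although both had fallen under constriction alone, by 0.46 ± 0.09 and 0.42 ± 0.09. Popdc2, a Popeye domain protein of striated muscle membranes that binds cyclic AMP, rose within the core. It stood at 661, 599.8, 675, 655 and 613 CPM in TAC saline and 888, 982, 977, 1033 and 1026 CPM in TAC NRG1. No libraries overlapped, and the rise of 0.61 ± 0.07 (limma adjusted p = 2.0e-05) was 0.57 without replicates 4 and 5. In sham Popdc2 was at 649 ± 47.5 CPM, so constriction alone left it at -0.02 ± 0.07 (limma adjusted p = 0.925).

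**Figure D4:**
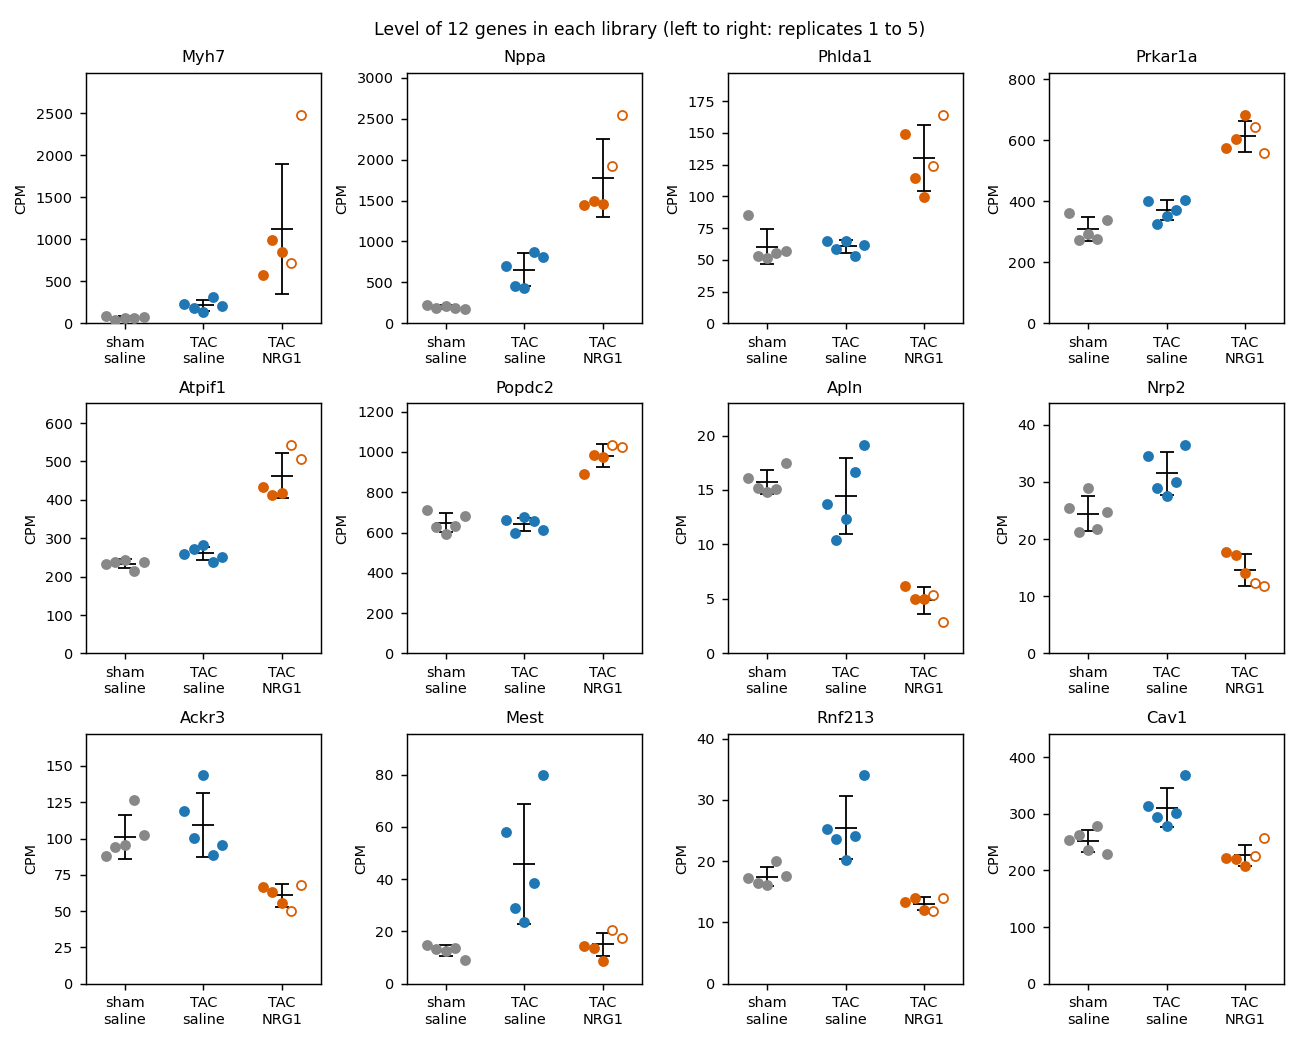
Level of 12 called genes in every library, in CPM, with replicates 1 to 5 from left to right in each group. Points are libraries, with TAC NRG1 4 and 5 drawn open, and bars are the mean ± SD of 5 libraries. In all 12 panels the TAC NRG1 points lie to one side of the TAC saline points.

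Antisense transcripts that overlap these genes were called too, and were chosen for naming after their values were seen. Mhrt, a long non-coding RNA antisense to Myh7, stood at 40.9, 56.4, 53.5, 41.4 and 33.8 CPM in TAC saline. In TAC NRG1 it was at 31.6, 35.2, 24.3, 21.6 and 12.6 CPM. It fell by 0.91 ± 0.19 (limma adjusted p = 0.0157), with an overlap of the groups, and by 0.56 without replicates 4 and 5 (limma adjusted p = 0.129). Myh7 was highest and Mhrt lowest in the same library, TAC NRG1 5. Gm13054, antisense to Nppa, rose by 1.18 from 12.6 ± 5.23 to 26.8 ± 6.31 CPM, in the direction of Nppa (SD, n = 5 each). 9330158H04Rik, which overlaps the muscarinic receptor gene Chrm2 on the opposite strand, rose from 17.0 ± 2.71 to 27.1 ± 6.01 CPM, and Chrm2 from 37.3 ± 4.77 to 53.7 ± 8.02 CPM. Of these, Mhrt lost its call without TAC NRG1 4 (limma adjusted p = 0.0511). Gm13054 lost it without TAC saline 2, 3 or 4 or TAC NRG1 4 or 5 (limma adjusted p of 0.0540 to 0.0818). Chrm2 lost it without TAC saline 1 or 3 or TAC NRG1 4 or 5 (limma adjusted p of 0.0589 to 0.0844), and 9330158H04Rik without TAC saline 1 or 2 or TAC NRG1 4 or 5 (limma adjusted p of 0.0561 to 0.0873). Without TAC NRG1 4 and 5 together, Gm13054, Chrm2 and 9330158H04Rik did not pass either (limma adjusted p of 0.216, 0.207 and 0.242). The overlaps were read from an annotation of GRCm38. Whether the counting used strand is not given in the sources used here, so whether reads of a gene and its antisense partner were kept apart is not known.

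No receptor of NRG1 and no adaptor of the receptors passed the test. Of 16 tested members of the ERBB list, 0 were called by limma, and 0 were called without replicates 4 and 5. An unadjusted limma p under 0.05 was seen in 1 of the 16, and in 15.3% of all genes tested. Erbb2, the partner receptor that binds no ligand, stood at 6.51, 6.12, 6.41, 5.56 and 5.41 CPM in TAC saline and 7.88, 6.52, 8.53, 5.34 and 3.31 CPM in TAC NRG1. The TAC NRG1 libraries lay on both sides of TAC saline, with a difference of 0.00 (95% interval -0.46 to 0.47). Without replicates 4 and 5, the lowest of the 5, the difference was 0.34 and did not pass (limma adjusted p = 0.660). Erbb3 was at 7.63 ± 2.02 and 9.60 ± 0.949 CPM (difference 0.37, 95% interval -0.01 to 0.75, limma adjusted p = 0.347). Erbb4, the main NRG1 receptor of cardiomyocytes, was at 2.17, 2.62, 2.25, 4.08 and 1.08 CPM in TAC saline and 2.07, 2.35, 2.42, 2.55 and 6.41 CPM in TAC NRG1 (difference 0.35, 95% interval -0.43 to 1.14, limma adjusted p = 0.707). Nrg1 itself was too low to be tested. Ptpn11, the phosphatase SHP2, had the smallest p of the list, at 99.5 ± 10.4 and 79.2 ± 9.33 CPM (difference -0.33, limma adjusted p = 0.103).

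Downstream of ERK, Phlda1 and Etv5 rose and the classic feedback phosphatase and Sprouty genes did not pass. Phlda1, a pleckstrin homology-like protein induced by receptor signalling, stood at 65.2, 58.4, 64.6, 53.0 and 61.9 CPM in TAC saline and 149, 114, 99.7, 124 and 164 CPM in TAC NRG1. The lowest TAC NRG1 library was well above the highest TAC saline library. The rise of 1.08 ± 0.13 (limma adjusted p = 2.5e-05) was 0.98 without replicates 4 and 5 (limma adjusted p = 0.000512), and sham stood at 60.4 ± 13.9 CPM. Etv5, an ETS factor transcribed in response to ERK, stood at 9.40, 10.4, 5.37, 6.80 and 11.4 CPM and then 12.6, 13.7, 15.4, 16.0 and 14.4 CPM. It rose by 0.78 ± 0.19 with no overlap (limma adjusted p = 0.0428), but passed in only 4 of the 10 fits that left out a TAC library. The call was lost without TAC saline 1, 3 or 4, TAC NRG1 3, 4 or 5, or sham saline 4 (limma adjusted p of 0.0540 to 0.124), and without both TAC NRG1 4 and 5 (limma adjusted p = 0.207). Dusp6, the phosphatase that switches ERK off, was at 24.0 ± 3.29 and 29.1 ± 6.32 CPM (difference 0.26, 95% interval -0.04 to 0.57), and Spry4 at 12.6 ± 3.68 and 15.6 ± 2.75 CPM (difference 0.34, 95% interval -0.10 to 0.78). Of the 23 tested members, 2 rose (8.70%, where 0.672% of all genes tested did) and 0 fell (0.626% of all genes tested did). Values were positive in 14 and negative in 9, from -0.86 to 1.08, with a list median of 0.07. Before adjustment, 5 of the 23 had a limma p under 0.05, 2 of them higher, where 15.3% of all genes tested had such a p.

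The immediate early factors, which growth signals and tissue handling both induce quickly, had mostly negative values. Of 20 tested, 2 fell and 0 rose, where 0.626% of all genes tested fell and 0.672% rose. In this list 17 members had negative values, as did 5599 of all 11018 genes tested. Values ran from -1.04 to 0.53, and 1 member lay higher with no overlap of the groups but did not pass. The median was -0.24, or -0.13 without replicates 4 and 5, and 0 members were called without that pair. Jun, a subunit of AP-1, stood at 89.5, 78.1, 108, 106 and 85.2 CPM in TAC saline and 64.8, 60.3, 46.0, 42.5 and 64.3 CPM in TAC NRG1. No libraries overlapped, and Jun fell by 0.76 ± 0.16 (limma adjusted p = 0.0152). The call was lost without TAC NRG1 4 (limma adjusted p = 0.0598), and without both 4 and 5 (limma adjusted p = 0.0800). Klf6, a Krüppel-like factor, fell by 0.57 ± 0.13 from 79.4 ± 7.08 to 54.4 ± 11.2 CPM, with TAC NRG1 5 at 35.1 and the others at 56.3 to 63.8 CPM (limma adjusted p = 0.0259). It was lost without TAC saline 1, 4 or 5 or TAC NRG1 5 (limma adjusted p of 0.0542 to 0.0702), and without both TAC NRG1 4 and 5 (limma adjusted p = 0.125).

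In cyclic AMP signalling, which adrenergic stimulation drives in the heart, Prkar1a rose and none of the other 19 tested members was called. The rise was 5.0% of the list, where 0.672% of all genes tested rose. A limma p under 0.05 before adjustment was seen in 5 of the 20, 4 of them higher, and in 15.3% of all genes tested. Prkar1a encodes the regulatory subunit that holds protein kinase A inactive until cyclic AMP binds. It stood at 400.4, 325, 350.3, 372 and 405 CPM in TAC saline and 575, 603, 683, 643 and 557 CPM in TAC NRG1. All TAC NRG1 libraries were higher than all TAC saline libraries, with replicate 3 the highest and replicate 5 the lowest of them. The rise of 0.72 ± 0.09 (limma adjusted p = 2.5e-05) was 0.74 without replicates 4 and 5, and sham stood at 308 ± 39.2 CPM. The catalytic subunit gene Prkaca was at 207 CPM in TAC saline and 263 CPM in TAC NRG1 (difference 0.34, limma adjusted p = 0.0780). The β1 receptor gene Adrb1 differed by 0.21 (limma adjusted p = 0.557).

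Several other genes of the core rose, some of them with roles in metabolism or ion transport. Atpif1, the inhibitory factor of the mitochondrial ATP synthase, had the smallest p of all genes. It stood at 259.8, 273, 282, 237 and 251 CPM in TAC saline and 432, 413, 417, 543 and 507 CPM in TAC NRG1. The groups were far apart, with replicates 4 and 5 the highest, and the rise was 0.82 ± 0.08 (limma adjusted p = 3.1e-06), or 0.69 without that pair (limma adjusted p = 2.7e-05). Gpd1, the cytosolic glycerol-3-phosphate dehydrogenase, rose from 27.4 ± 1.96 to 49.6 ± 7.01 CPM with no overlap (log2 fold change 0.85 ± 0.12, limma adjusted p = 0.000256). Apobec2, a muscle member of the cytidine deaminase family, stood at 246, 250.3, 253, 272 and 265 CPM and then 345, 347, 411, 454 and 374 CPM. It rose by 0.58 ± 0.08 (limma adjusted p = 0.000163) and by 0.51 without replicates 4 and 5. Tesc, tescalcin, a calcium-binding protein that acts on the sodium-proton exchanger, rose from 128 ± 13.4 to 211 ± 45.0 CPM (0.69 ± 0.11, limma adjusted p = 0.000791). Gpr146, an orphan receptor, rose from 74.1 ± 4.81 to 111 ± 7.83 CPM (0.59 ± 0.08), and Plxnb2, a semaphorin receptor, from 55.7 ± 5.92 to 86.2 ± 8.91 CPM (0.63 ± 0.11). Gpd1, Tesc, Gpr146 and Plxnb2 were called without replicates 4 and 5 as well (highest limma adjusted p 0.0369, for Plxnb2).

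Calls in energy metabolism are given beside the 1.3% called over all genes. Of 57 nuclear subunits of the respiratory chain, 0 were called by limma. An unadjusted limma p under 0.05 was seen in 8 of the 57, and in 15.3% of all genes tested. Positive values were seen in 50 of the 57, and in 5419 of all 11018 genes tested, and the list median was 0.12. Without replicates 4 and 5 that median was 0.02. Constriction alone had lowered 21 of the 57, with a median of -0.25. Of 37 genes of fatty acid uptake and oxidation, Slc27a1, a fatty acid transporter, rose from 68.7 ± 13.0 to 95.8 ± 12.8 CPM (0.49 ± 0.12, limma adjusted p = 0.0443) and 0 fell. That call was lost without any of TAC saline 1, 2 or 5, TAC NRG1 4 or 5 or sham saline 1, 4 or 5 (limma adjusted p of 0.0539 to 0.154), and without both TAC NRG1 4 and 5 (limma adjusted p = 0.301). Ppargc1a, the coactivator PGC-1α that drives mitochondrial gene expression, was at 58.1 ± 7.43 and 40.2 ± 12.2 CPM (difference -0.57, limma adjusted p = 0.0550), with TAC NRG1 4 and 5 the lowest at 28.6 and 30.3 CPM. Without that pair its difference was -0.31.

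Of 30 genes of glucose uptake, glycolysis and glycogen, Pfkp and Tpi1 rose and 0 fell, with a list median of 0.15. The rises were 6.67% of the list, where 0.672% of all genes tested rose. Pfkp, the platelet isoform of phosphofructokinase, which sets the pace of glycolysis, stood at 45.8, 40.4, 38.3, 37.7 and 53.7 CPM in TAC saline. In TAC NRG1 it was at 59.6, 58.4, 82.9, 66.2 and 59.9 CPM, above every TAC saline library. It rose by 0.60 ± 0.12 (limma adjusted p = 0.0135) on top of a rise of 0.77 ± 0.12 under constriction alone, and did not pass without replicates 4 and 5 (0.63, limma adjusted p = 0.0573). Tpi1, triose phosphate isomerase, rose by 0.33 ± 0.08 (limma adjusted p = 0.0437), with an overlap of the groups, and passed in 4 of the 10 fits that left out a TAC library (highest limma adjusted p 0.153, without TAC NRG1 4). Single members were called in neighbouring lists. These were Srebf1, the lipid synthesis factor SREBP-1, at 21.0 ± 1.67 and 30.4 ± 4.50 CPM, Nqo1, a quinone reductase induced by NRF2, at 40.9 ± 3.44 and 57.2 ± 5.58 CPM, and Egln3, a hypoxia-induced prolyl hydroxylase, at 32.0 ± 4.38 and 44.9 ± 7.44 CPM (SD, n = 5 each). Of the 3, Nqo1 belonged to the core. Srebf1 was lost without TAC saline 1 or TAC NRG1 4 or 5 (limma adjusted p of 0.0542 to 0.0865). The call of Egln3 was lost in 7 of the 10 fits that left out a TAC library (highest limma adjusted p 0.130, without TAC NRG1 4). Without both TAC NRG1 4 and 5, none of Tpi1, Srebf1, Nqo1 and Egln3 passed (limma adjusted p of 0.391, 0.211, 0.110 and 0.0955).

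Vascular genes made up several of the firmest falls. Apln encodes apelin, a peptide of endothelial cells that acts on vessels and on the force of the heart. It stood at 13.7, 10.4, 12.3, 16.7 and 19.1 CPM in TAC saline and at 6.22, 4.96, 4.97, 5.34 and 2.87 CPM in TAC NRG1. The highest TAC NRG1 library was below the lowest TAC saline library. Apln fell by 1.58 ± 0.20 (limma adjusted p = 3.0e-05), and by 1.40 without replicates 4 and 5 (limma adjusted p = 0.000246). Sham stood at 15.7 ± 1.10 CPM, so the level under NRG1 was below that without constriction as well (log2 difference from sham -1.73, limma adjusted p = 1.3e-06). Its receptor gene Aplnr was at 35.5 CPM in TAC saline and 23.5 CPM in TAC NRG1 (difference -0.64, limma adjusted p = 0.0927). In bulk tissue, fewer endothelial cells and less RNA of a gene per cell cannot be told apart.

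Nrp2, a co-receptor for semaphorins and vascular endothelial growth factors, stood at 34.6, 28.9, 27.5, 30.0 and 36.4 CPM in TAC saline. In TAC NRG1 it was at 17.8, 17.1, 14.1, 12.3 and 11.7 CPM. The groups were well apart, and the fall of 1.12 ± 0.14 (limma adjusted p = 2.5e-05) was 0.94 without replicates 4 and 5. Plxnd1, an endothelial semaphorin receptor, fell by 0.59 ± 0.13 from 89.5 ± 10.6 to 60.0 ± 13.4 CPM (limma adjusted p = 0.0210), a call lost without TAC saline 1, 4 or 5 or TAC NRG1 4 or 5 (limma adjusted p of 0.0510 to 0.0610), and without both of the last pair (limma adjusted p = 0.169). Vegfa, the main vascular growth factor, was at 199.9 ± 51.6 and 161 ± 25.3 CPM (difference -0.29, 95% interval -0.58 to 0.00, limma adjusted p = 0.323). Among 31 tested angiogenic ligands and receptors, 3 fell (Apln, Nrp2 and Plxnd1) and 1 rose (Fgf1, an acidic fibroblast growth factor, by 0.35 ± 0.08 from 90.0 ± 7.39 to 115 ± 8.83 CPM). The falls were 9.68% and the rise 3.23% of the list, against 0.626% and 0.672% of all genes tested. The list median was -0.14, and -0.06 without replicates 4 and 5. The call of Fgf1 was lost without TAC saline 1 or 3 or TAC NRG1 4 (limma adjusted p of 0.0517 to 0.0844), and without both TAC NRG1 4 and 5 (limma adjusted p = 0.0977). In the fit without that pair, 2 members of the list were called lower and 1 member other than Fgf1 higher. Ackr3, a scavenging chemokine receptor, is outside that list and belonged to the core. It stood at 119, 100.4, 144, 88.6 and 95.4 CPM and then 66.8, 63.2, 55.9, 49.9 and 68.3 CPM, a fall of 0.83 ± 0.12 (limma adjusted p = 0.000313), or 0.80 without replicates 4 and 5 (limma adjusted p = 0.00231).

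Of 30 endothelial identity genes, 4 fell (Bcl6b, Pcdh12, Icam2 and Cdh5) and 0 rose. The falls were 13.3% of the list, where 0.626% of all genes tested fell. Negative values were seen in 26 of the 30, and in 5599 of all 11018 genes tested. The list median was -0.23, and -0.20 without replicates 4 and 5. Bcl6b, an endothelial repressor of transcription, stood at 33.1, 20.9, 23.7, 20.9 and 30.9 CPM in TAC saline and 19.2, 12.8, 6.50, 13.2 and 8.18 CPM in TAC NRG1. It fell by 1.19 ± 0.24 with no overlap (limma adjusted p = 0.0123), and by 1.12 without replicates 4 and 5, where it did not pass (limma adjusted p = 0.0800). Pcdh12, an endothelial protocadherin, fell by 1.17 ± 0.23 from 13.8 ± 2.86 to 6.28 ± 2.00 CPM (limma adjusted p = 0.0101; 0.0885 without replicates 4 and 5). Cdh5, the junction protein VE-cadherin, stood at 184, 147, 131, 163 and 186 CPM and then 115, 127, 109, 118 and 127 CPM. It fell by 0.43 ± 0.09 (limma adjusted p = 0.0157), a call lost without TAC saline 1 or 5 (limma adjusted p of 0.0579 and 0.0509) or without TAC NRG1 4 and 5 together (limma adjusted p = 0.0558). Icam2, an adhesion molecule of endothelium, lost its call without TAC saline 1 or 5 or TAC NRG1 5 (limma adjusted p of 0.0611 to 0.0757), and without TAC NRG1 4 and 5 together (limma adjusted p = 0.136). Sox17, an endothelial transcription factor in the same list, lay higher with no overlap, at 10.6 to 15.5 CPM in TAC saline and 16.6 to 28.1 CPM in TAC NRG1, but did not pass (difference 0.55, limma adjusted p = 0.0780). Pecam1, a general endothelial marker, was at 90.7 and 73.1 CPM (difference -0.30, limma adjusted p = 0.175). The endothelial markers summed to 3122 to 3278 CPM in TAC saline and 2899 to 3181 CPM in TAC NRG1, and the part of that difference in the single genes was not tested. The largest member of both sums was Cd36, at 798 to 1077 CPM in TAC saline and 949 to 1176 CPM in TAC NRG1. The sums thus say little of the 26 members with negative values.

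Cav1, the coat protein of caveolae, which are dense in endothelium, fell within the core. It stood at 313, 295, 278, 301 and 368 CPM in TAC saline and 222, 220.0, 209, 225 and 257 CPM in TAC NRG1. The fall of 0.45 ± 0.08 (limma adjusted p = 0.00426) was 0.51 without replicates 4 and 5, and sham stood at 252 ± 19.9 CPM. Further core genes that fell were Rnf213, a large ubiquitin ligase linked to vessel disease, from 25.5 ± 5.14 to 13.1 ± 1.02 CPM (-0.95 ± 0.13, limma adjusted p = 0.000226), and Rflnb, a regulator of filamin, from 51.9 ± 5.12 to 28.2 ± 4.63 CPM (-0.89 ± 0.14, limma adjusted p = 0.00117). Prkd2, a protein kinase D, fell from 16.8 ± 1.42 to 9.08 ± 2.70 CPM (-0.93 ± 0.17, limma adjusted p = 0.00449). For all 3 genes the groups did not overlap and the call held without replicates 4 and 5.

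Mest, an imprinted gene expressed from the paternal copy and high in growing fetal tissue, was raised by constriction and lower with NRG1. It stood at 58.0, 29.1, 23.7, 38.5 and 79.7 CPM in TAC saline, at 14.5, 13.8, 8.53, 20.7 and 17.5 CPM in TAC NRG1 and at 12.7 ± 2.14 CPM in sham. No TAC NRG1 library reached the TAC saline range. The fall against TAC saline was 1.53 ± 0.25 (limma adjusted p = 0.00151), and 1.79 without replicates 4 and 5. Its difference from sham was 0.20 (limma adjusted p = 0.655). None of the other 11 tested members of the imprinted growth network was called, where 1.3% of all genes tested were. Gm19277, a predicted gene, had the lowest fold change of all called genes, from 5.72 ± 2.26 to 1.34 ± 0.561 CPM (-2.12 ± 0.34, limma adjusted p = 0.00114).

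Genes of dividing cells had raised levels under constriction and mostly lower, scattered levels with NRG1. Of 33 tested genes of mitosis and DNA replication, 32 had negative values, with a median log2 fold change of -0.79, or -0.75 without replicates 4 and 5. Over all genes tested, 5599 of 11018 had negative values. Only 1 of the list passed (3.03%, where 0.626% of all genes tested fell), Cenpf, a kinetochore protein. Constriction alone had raised 29 of the 33, with a median of 2.06. Cenpf stood at 9.11, 7.87, 5.71, 9.02 and 11.9 CPM in TAC saline and 4.01, 4.09, 6.50, 2.55 and 3.31 CPM in TAC NRG1. TAC NRG1 3 lay within the TAC saline range, and the fall was 1.12 ± 0.24 (limma adjusted p = 0.0170), lost without TAC saline 1 or 5 or TAC NRG1 4 (limma adjusted p of 0.0502 to 0.0629), and without both TAC NRG1 4 and 5 (limma adjusted p = 0.169). Top2a, the topoisomerase of dividing cells, was at 2.04 CPM in sham, 15.2 CPM in TAC saline and 5.54 CPM in TAC NRG1 (difference -1.30, limma adjusted p = 0.0998). Cdk1, the mitotic kinase, was at 1.95, 11.6 and 5.12 CPM in the same order (difference -1.16, limma adjusted p = 0.0898). Genes of such a list vary together between libraries, so their number does not stand for independent evidence.

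Interferon-stimulated genes showed the same order of levels at smaller sizes. Of 25 tested, 2 fell, Gbp3 and Oasl2 (8.0%, where 0.626% of all genes tested did). Negative values were seen in 24 of the 25, and in 5599 of all 11018 genes tested. The list median was -0.45, or -0.43 without replicates 4 and 5. Constriction alone had raised 14 of the 25, with a median of 0.80. Oasl2, an antiviral oligoadenylate synthetase-like protein, stood at 9.11, 11.9, 10.2, 14.0 and 12.1 CPM in TAC saline, at 5.94, 8.26, 6.50, 5.80 and 6.85 CPM in TAC NRG1 and at 5.95 ± 1.15 CPM in sham. The groups under constriction did not overlap, and the fall was 0.78 ± 0.19 (limma adjusted p = 0.0351). Gbp3, a guanylate-binding protein, fell by 0.83 ± 0.20 from 14.0 ± 4.69 to 7.58 ± 1.08 CPM (limma adjusted p = 0.0398). Reads of guanylate-binding protein genes can be split between similar copies. The call of Oasl2 was lost in 7 of the 10 fits that left out a TAC library and that of Gbp3 in 6 (highest limma adjusted p 0.110 and 0.122, each without TAC saline 4). Neither passed without both TAC NRG1 4 and 5 (limma adjusted p of 0.169 and 0.122). In that fit 1 other member of the list was called lower.

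Other immune genes were counted by cell type and function. Of 27 macrophage and myeloid genes 0 were called by limma. An unadjusted limma p under 0.05 was seen in 4 of the 27, and in 15.3% of all genes tested. Negative values were seen in 23 of the 27, and in 5599 of all 11018 genes tested. The list median was -0.22, while constriction alone had raised 11 of the 27. Tyrobp, a signalling adaptor of myeloid cells, was at 30.9 ± 3.79 and 24.4 ± 5.08 CPM (difference -0.36, 95% interval -0.65 to -0.07, limma adjusted p = 0.217). B2m, the β2-microglobulin of class I antigen presentation, was at 720.5, 677, 767, 1125 and 759 CPM in TAC saline and 689.8, 548, 584, 518 and 707 CPM in TAC NRG1. The groups overlapped, and the difference of -0.40 did not pass (limma adjusted p = 0.0752). Il6ra, the receptor that binds interleukin-6, fell. It stood at 9.40, 8.87, 7.10, 11.7 and 9.26 CPM in TAC saline and 4.28, 5.83, 4.71, 1.16 and 2.43 CPM in TAC NRG1, with replicates 4 and 5 the lowest. The fall was 1.52 ± 0.31 (limma adjusted p = 0.0123), and 0.90 without those libraries, where it did not pass (limma adjusted p = 0.0800). Lrg1, a leucine-rich glycoprotein induced by interleukin-6 signalling, rose within the core, from 27.9, 27.9, 33.1, 28.6 and 28.5 CPM to 47.4, 40.4, 55.7, 61.1 and 51.9 CPM. That rise was 0.80 ± 0.12 (limma adjusted p = 0.000333; 0.00866 without replicates 4 and 5), and it had fallen by 0.42 ± 0.12 under constriction alone. Cxcl9, an interferon-induced chemokine, fell from 9.34 ± 1.25 to 5.20 ± 1.95 CPM (-0.92 ± 0.23, limma adjusted p = 0.0428), a call lost in 8 of the 10 fits that left out a TAC library (highest limma adjusted p 0.0973, without TAC saline 5). It did not pass without TAC NRG1 4 and 5 together (limma adjusted p = 0.0887).

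Haemoglobin and other red cell transcripts were higher with NRG1, most of all in replicates 4 and 5. Haemoglobin genes took 0.107% to 0.161% of reads in TAC saline and 0.222%, 0.200%, 0.189%, 0.366% and 0.350% in TAC NRG1 1 to 5, with 0.0888% to 0.221% in sham. All TAC NRG1 libraries were above all TAC saline libraries (exact two-sided permutation p = 0.00794, the smallest that 5 against 5 allow, and 0.0159 adjusted over 2 shares tested). Without replicates 4 and 5 the difference was 0.0727 percentage points instead of 0.134, and all 3 libraries left were still above all TAC saline libraries. The exact permutation p was then 0.0357, the smallest that 3 against 5 allow in this test, and 0.0714 adjusted over the 2 shares. The share of mitochondrial genes was 25.8% ± 2.35 in TAC NRG1 and 27.7% ± 1.62 in TAC saline (exact permutation p = 0.190, also 0.190 adjusted, n = 5 each). Of 8 tested red cell and platelet genes, 5 rose: Hba-a1, Hba-a2, Hbb-bs, Hbb-bt and Alas2. That is 62.5% of the list, where 0.672% of all genes tested rose. Hbb-bt, a β-globin gene, stood at 255, 222, 218, 159 and 192 CPM in TAC saline and 405, 335, 309.6, 564 and 615 CPM in TAC NRG1. It rose by 1.05 ± 0.22 (limma adjusted p = 0.0125), and by 0.75 without replicates 4 and 5 (limma adjusted p = 0.167). None of the 5 passed without that pair, and each lost its call without TAC NRG1 4 alone. Reads of the globin copies can be split between near-identical genes. Alas2, the haem synthesis enzyme of red cell precursors, rose from 16.6 ± 2.32 to 35.9 ± 12.2 CPM.

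Of 46 tested extracellular matrix genes Thbs4 rose (2.17%, where 0.672% of all genes did) and 0 fell, with a list median of 0.14, where TAC saline against sham had 40 higher and a median of 1.27. Thbs4, a matricellular thrombospondin, stood at 36.0, 16.4, 15.8, 36.7 and 46.3 CPM in TAC saline and 58.2, 36.6, 119.8, 67.1 and 51.9 CPM in TAC NRG1. The groups overlapped, TAC NRG1 3 was the highest, and the rise was 1.16 ± 0.27 (limma adjusted p = 0.0310), lost without TAC saline 2 or 3 or TAC NRG1 3 or 4 (limma adjusted p of 0.0571 to 0.0844), and without both TAC NRG1 4 and 5 (limma adjusted p = 0.114). Col1a1, a chain of type I collagen, was at 162 ± 54.2 and 198 ± 79.3 CPM (difference 0.29, 95% interval -0.14 to 0.73). Postn, a matricellular protein of activated fibroblasts, was at 265 ± 138 and 323 ± 120.1 CPM (difference 0.41, 95% interval -0.19 to 1.02). Neither passed (limma adjusted p of 0.536 and 0.529). Of 20 fibroblast identity genes 1 rose, Mgp, a calcification inhibitor, from 212 ± 26.2 to 309 ± 68.7 CPM (0.52 ± 0.12, limma adjusted p = 0.0302), lost in 7 of the 10 fits that left out a TAC library (highest limma adjusted p 0.113, without TAC NRG1 4). It also failed with both TAC NRG1 4 and 5 left out (limma adjusted p = 0.302). The smooth muscle and myofibroblast markers summed to 2610 to 3049 CPM in TAC saline and 3103 to 3499 CPM in TAC NRG1, with no overlap. Des, which cardiomyocytes also express and which is described above, made up that gap. Without Des, the other 19 markers summed to 1037 ± 70.7 CPM in TAC saline and 1028 ± 76.4 CPM in TAC NRG1 (SD, n = 5 each). Over the 20 members 11 values were positive and 9 negative, with a median of 0.05.

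Cytosolic ribosomal protein genes were slightly higher. All 34 tested had positive values, where 5419 of all 11018 genes did. The list median was 0.19, or 0.11 without replicates 4 and 5. Of the list 2.94% rose, where 0.672% of all genes tested did. Only Rpsa passed, a protein of the small subunit, at 398, 387, 391, 341 and 370.5 CPM in TAC saline and 463, 434, 457, 503 and 505 CPM in TAC NRG1. The groups did not overlap and Rpsa rose by 0.32 ± 0.07 (limma adjusted p = 0.0157), lost without TAC saline 4 or TAC NRG1 4 (limma adjusted p of 0.0531 and 0.0598), and without both TAC NRG1 4 and 5 (limma adjusted p = 0.162). These are short transcripts, and over all tested genes the called higher genes had a median longest transcript of 2.62 kb, the called lower genes 3.83 kb and all genes 3.45 kb. The part of transcript length in the calls was not tested.

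**Figure D5:**
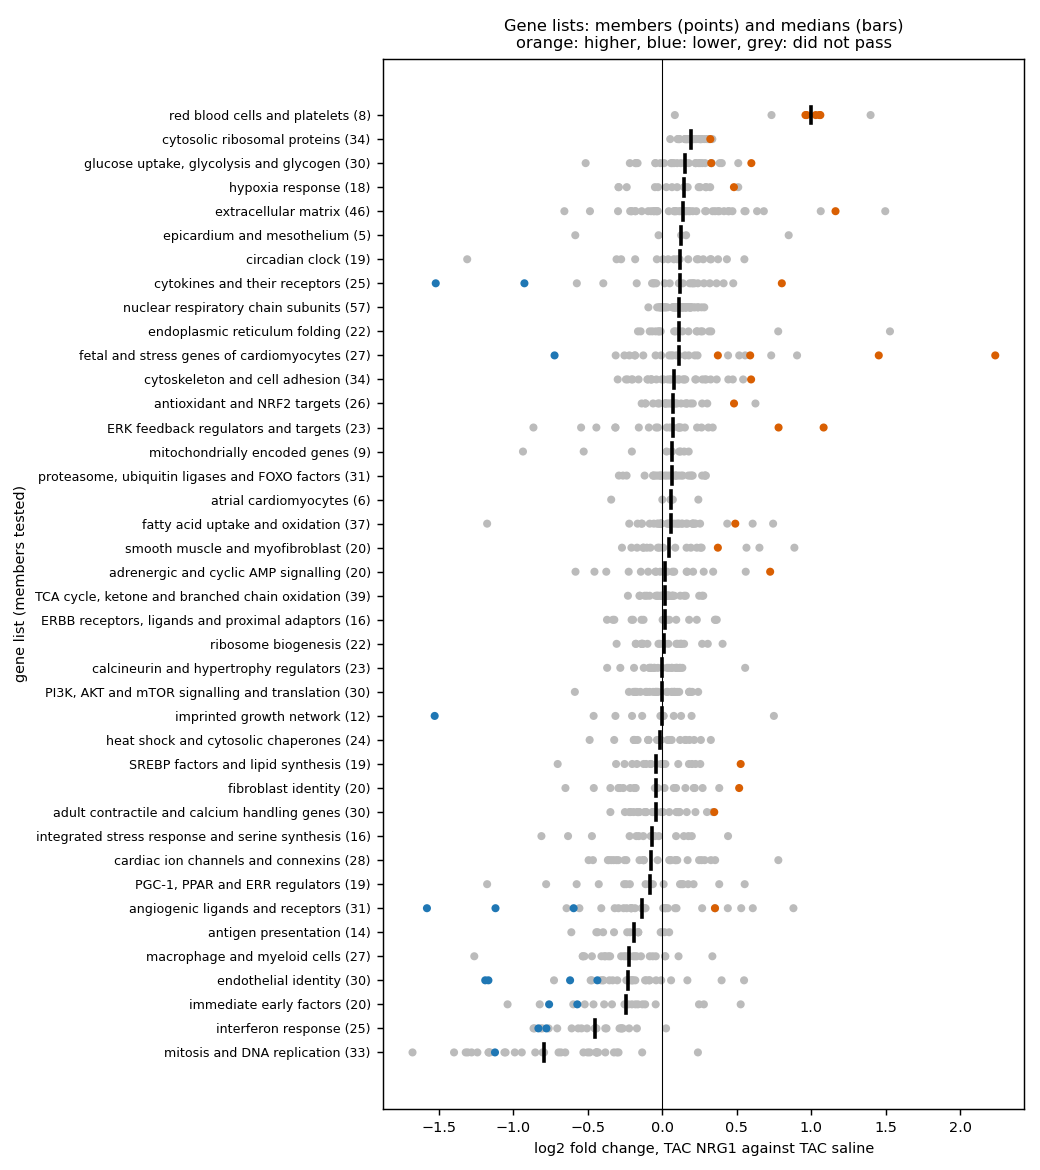
Log2 fold change of the members of each gene list with 5 or more tested members, TAC NRG1 against TAC saline, ordered by the list median (black bars). Points are genes, orange where called higher, blue where called lower and grey where the test was not passed. The mitosis list lies lowest with a median of -0.79, the interferon list next with -0.45, and the red cell and platelet list highest with 1.00.

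Some of the highest folds were seen in genes at low levels. Sprr1a, a cornified envelope protein also induced in stressed cardiomyocytes, had the highest fold change of all called genes. It stood at 1.01, 1.12, 1.90, 6.80 and 7.58 CPM in TAC saline and 7.88, 7.57, 95.9, 16.5 and 9.94 CPM in TAC NRG1. TAC NRG1 3 was far above the other libraries, and the log2 fold change was 2.61 ± 0.63 (limma adjusted p = 0.0363), or 1.95 without that library. The call was lost without TAC saline 1, 2 or 3 or TAC NRG1 3, 4 or 5 (limma adjusted p of 0.0503 to 0.102), where the fold change stayed between 1.95 and 2.77. Bcr, a signalling protein with a kinase domain, was at 36.6 CPM in the same library and 14.5 to 16.6 CPM in the other TAC NRG1 libraries, against 5.02 to 11.0 CPM in TAC saline. It rose by 1.32 ± 0.25 (limma adjusted p = 0.00710) and kept its call without any single TAC library. Syt12, a synaptotagmin, stood at 2.35 to 4.45 CPM in TAC saline and 5.67, 7.92, 10.8, 12.8 and 10.8 CPM in TAC NRG1. It rose by 1.54 ± 0.28 with no overlap (limma adjusted p = 0.00472), and did not pass without replicates 4 and 5 (1.30, limma adjusted p = 0.110). Without both TAC NRG1 4 and 5, Bcr passed (limma adjusted p = 0.0195), while Sprr1a did not (limma adjusted p = 0.114).

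In the remaining lists, 0 to 1 members were called by limma. No member was called among the 28 ion channel and connexin genes, the 23 calcineurin and hypertrophy regulators, the 30 genes of PI3K, AKT and mTOR signalling and translation, the 22 endoplasmic reticulum folding genes or the 24 heat shock genes. Their medians were -0.08, 0.00, 0.00, 0.11 and -0.01, and 7, 3, 3, 7 and 2 of their members had an unadjusted limma p under 0.05. Over all genes tested, 15.3% had such a p. Gja1, the main ventricular connexin, lay at 336 to 375 CPM in TAC saline and 384 to 456 CPM in TAC NRG1 with no overlap, but its difference of 0.25 did not pass (limma adjusted p = 0.0916). Xbp1, a factor of the unfolded protein response, was likewise apart at 66.4 to 74.9 and 82.4 to 96.7 CPM (difference 0.31, limma adjusted p = 0.0643). Rcan1, a target and inhibitor of calcineurin, was at 134 ± 49.5 and 195 ± 54.6 CPM (difference 0.56, limma adjusted p = 0.155). Of the 34 cytoskeleton and adhesion genes 1 rose (2.94%, where 0.672% of all genes tested did) and 0 fell. It was Tubb4b, a β-tubulin, which belonged to the core and rose from 217 ± 23.4 to 331 ± 55.0 CPM (0.60 ± 0.11, limma adjusted p = 0.00613).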

How the data were processed

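Per the labels' protocols, RNA was isolated from left ventricle (Tri Reagent) and libraries were prepared by MERCURIUS BRB-seq, a 3′-end method. The labels put all libraries in batch 1. Per the submitters' processing notes the build was GRCm39, and the software that aligned and counted the reads is not given in the sources used here. Spacing of the deposited log2 values shows that the authors took log2 of (reads + 0.5) times a library factor. Undoing that factor gave whole reads (within 0.05 for 98.9% to 99.5% of values per library, and for all under 1000 reads). Printed CPM are 2 to the power of the deposited log2 value, over 1000.

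The plan allowed for a test made for counts or one for log2 values, and the files held log2 values. limma 3.58.1 (R 4.3.3), with its spread allowed to follow the mean level, was fitted to the deposited values of all 15 libraries as 3 group means, two-sided, with Benjamini-Hochberg adjustment over 11018 genes and a threshold of 0.05. A gene was tested if 5 or more libraries reached 2.95 CPM (10 reads in the median library) and its reads summed to 15 or more. This left out 4240 of 15258. At these depths log2 fold changes had a standard error of 0.16 in the median gene. No libraries of a group were duplicates. Shares of reads were compared by exact two-sided permutation over 10 libraries. Replicate numbers were not taken to pair libraries: same-numbered TAC saline and TAC NRG1 libraries deviated together with correlations of -0.25 to 0.08.

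The members and the 43 gene lists were chosen with earlier results of these data known, so their counts are descriptions, with no test of a list. Named genes are the 15 most raised and 15 most lowered called genes with a mean of at least 5 CPM, leaving out predicted genes, up to 4 called members of each list or otherwise the one with the smallest p, a set of natriuretic, myosin, calcium, ERBB, ERK, matrix and vascular genes, and up to 12 genes in each direction that were called with and without TAC NRG1 4 and 5. Other names, among them antisense partners and list members beyond this rule (Mybpc2, Chrm2, Aplnr, Pecam1, Sox17, Prkaca, Adrb1, Top2a and Cdk1), were picked with their values in view. Some genes that the rule selects appear only in counts, and 1 is not reported here. GENCODE vM21 (GRCm38) gave overlapping genes and transcript lengths (lengths for 10906 tested genes, the longest annotated transcript) and RefSeq (GRCm38.p6) the upstream sequences, matched by symbol for 8697 tested genes. Alternatives covered scaling, weights, spread, groups fitted, replicate block, filter, pseudocount, thinning to 2017466 reads, threshold and libraries left out. Python 3.11.15 ran the tables and tests (scipy 1.17.1, numpy 2.4.6, pandas 2.3.3) and plots (matplotlib 3.10.9).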

Additional observations from a re-analysis of the deposited data

Results flagged for a closer look

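In 17 of 206 groups of 5 libraries examined, the highest or lowest library lay far from the rest of its group (a gap to the nearest other library above 0.71 of the range). For draws from a normal distribution, chance gives about 1 in 20 such groups. CPM need not follow one, and many of these genes were named for their values. The count thus cannot be set against that rate. In TAC NRG1 replicate 3 this held for 6 genes. Sprr1a stood there at 95.9 CPM (others 7.57 to 16.5), Bcr at 36.6 (14.5 to 16.6) and Aldh1a2, a retinoic acid enzyme of epicardium, at 66.6 (15.2 to 27.0). Col1a1 stood there at 335 CPM (142 to 192), while Atp2a2 was low at 4364 (4713 to 4835) and Rrp9, a nucleolar protein, low at 10.3 (11.7 to 12.1). In TAC NRG1 replicate 5, Myh7 was at 2478 CPM (576 to 986), Erbb4 at 6.41 (2.07 to 2.55) and Klf6 at 35.1 (56.3 to 63.8). In TAC NRG1 replicate 1, Pld2, a phospholipase D, was at 6.22 CPM (2.35 to 3.31) and Pccb, a propionyl-CoA carboxylase subunit, at 44.4 (53.7 to 57.2).

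In TAC saline replicate 4, Des was at 1991 CPM (others 1662 to 1716), Mgp at 257 (192 to 210.3) and B2m at 1125 (677 to 767). In TAC saline replicate 3, Lrg1 was at 33.1 CPM (27.9 to 28.6), Tpi1 at 335 (283 to 296) and Cma1, a mast cell chymase, at 1.90 (3.34 to 3.73).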

How the results depend on the processing

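Against 143 called genes (74 higher, 69 lower), the count was 93 (49 and 44) with a quality weight per library, 77 (44 and 33) with only the TAC groups fitted, and 39 (23 and 16) without TAC NRG1 4 and 5. At a threshold of 0.01 it was 39 (24 and 15), and at 0.10 it was 353 (171 and 182). Scaled by total reads alone, 48 genes were higher, and 45 by total reads without mitochondrial genes. Leaving out 1 library at a time gave 58 (without TAC NRG1 4) to 229 (without TAC NRG1 2), with 32 to 99 higher and 26 to 130 lower. With replicate number as a block the count was 111 (60 and 51), and the numbers were not shown to pair libraries. The haemoglobin difference of 0.134 percentage points was 0.0727 without TAC NRG1 4 and 5 (exact permutation p = 0.0357, the smallest possible, and 0.0714 adjusted). The log2 fold change of Erbb2, 0.00 as reported, was -0.014 with total reads, -0.051 without mitochondrial genes, -0.18 with thinned reads, 0.12 with voom weights, 0.34 without TAC NRG1 4 and 5, and -0.12 (without TAC NRG1 3) to 0.22 (without TAC NRG1 5) with 1 library left out. Of 101 named genes, 42 lost their call without TAC NRG1 4 and 5. The 101 include genes such as Nppb and Erbb2 that were not called with all libraries and so had no call to lose. Among the 143 called genes, 36 kept their call in that fit. The causes were not tested. Depth limits genes under about 5 CPM, such as Erbb4, where a library held few reads.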
